A study of Ovis aries with 36 samples.

Results

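The Supraspinatus (SS) was compared with 8 other muscles of the same sheep by RNA sequencing. The SS group holds 4 of the 36 samples, those labelled Supraspinatus, 1 from each of 4 animals, and it is the only muscle of the forelimb in the series. The other 32 samples are 8 muscles, of which Rectus femoris (RF), Adductor (AD), Gluteobiceps (GB), Semimembranosus (SM), Gluteus medius (GM) and Semitendinosus (ST) belong to the hind limb, Longissimus lumborum (LL) to the back and Psoas major (PM) to the loin. All animals were unrelated male Poll Dorset cross-bred lambs aged 14 months that came from different flocks and received no treatment, so every group shared sex, age and feeding. Each animal gave all 9 muscles, and 1 piece was taken from the middle of the superficial belly, so regional differences within a muscle were not sampled. The question was which loci separated SS from the other muscles as a whole.

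The Supraspinatus lies on the shoulder blade above its spine and holds and extends the shoulder joint in a standing animal. Skeletal muscle is a mixture of slow fibres, which use oxidative metabolism and resist fatigue, and fast fibres, which contract quickly and rely more on glycolysis. The types carry different isoforms of myosin, troponin, tropomyosin and the calcium pump, so those transcripts are often read as a sign of fibre type. Muscles also keep a record of where along the body they formed in the HOX transcription factors, of which members of the C and D clusters differ between fore and hind limbs. In whole tissue, a lower share of cells of a type and less RNA per cell cannot be told apart.

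The SS libraries held between 4316863 and 6151666 counts, within the range of 3699148 to 6427422 counts of the other libraries. Only 4 loci without an Ensembl gene took 67.2 to 73.5% of the SS counts and 65.7 to 78.3% of the counts of the others, and SS did not separate from the rest in this share (exact permutation test within animals, two-sided, p = 0.683). More loci had at least 1 count in SS, with a mean of 21090 against 20100. The difference of 992 loci had p = 0.0293 in the same exact test and 0.176 after Benjamini-Hochberg adjustment over 6 library properties. Its part in the results was not tested. The 4 SS libraries differed from each other by more than counting noise in every pair (chi-square divided by its degrees of freedom, 5.73 to 15). P-values of the locus tests rest on the spread left between samples once muscle and animal are in the model. They cover these 4 animals only.

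Of 12461 loci with enough counts to be tested, 188 differed between SS and the mean of the other 8 muscles at a false discovery rate (FDR) of at most 0.01 and a fold change above 2, which is 1.51% of the loci tested. SS was higher at 131 of them (1.05%) and lower at 57 (0.457%). The median log2 fold change (log2FC, SS minus the mean of the others) was 1.33 for the loci higher in SS and -1.51 for the loci lower in SS, against 0.00805 over all loci tested. The direction was the same in all 4 animals for 125 of the 131 higher loci and for all 57 lower loci. Of the 188 loci, 48.9% had no Ensembl gene, against 25.4% of all loci tested. The number of loci called fell to 113 without animal 2, to 69 without animal 3 and to 95 without animal in the model. It was 386 with no filter on low counts and 43 where every sample needed at least 10 counts.

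**Figure D1:**
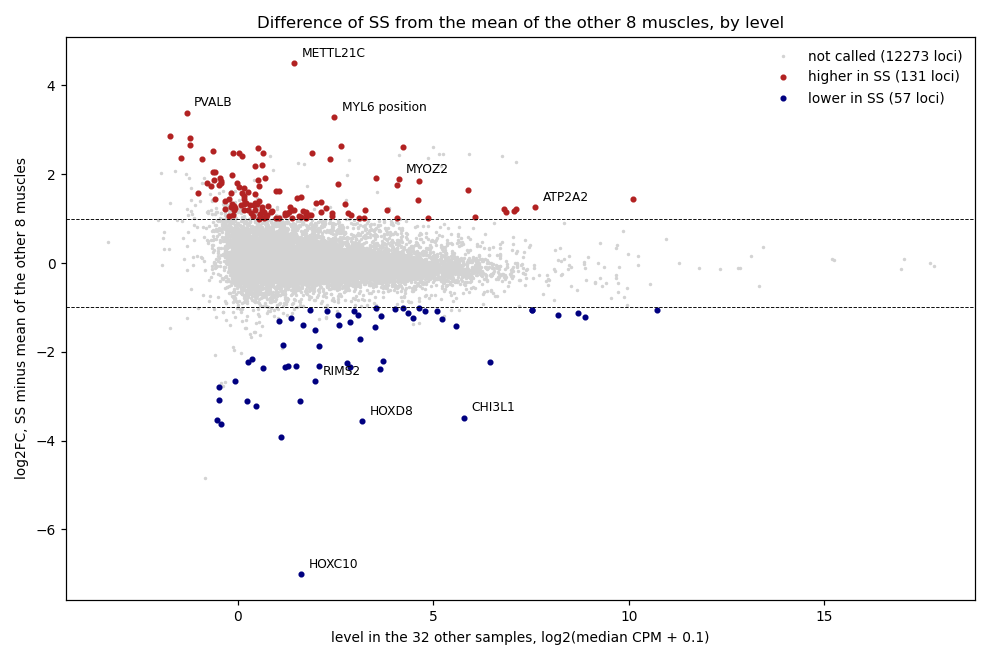
Difference of SS from the mean of the other 8 muscles for each of 12461 loci, as log2FC on the vertical axis, against the level in the 32 other samples as log2 of the median CPM (counts scaled by library size) plus 0.1. Red points are the 131 loci called higher in SS and blue points the 57 called lower, and dashed lines mark 2-fold. METTL21C stands highest at 4.51 and HOXC10 lowest, while the mass of grey points lies around 0.

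A difference from a mean of 8 muscles can rest on some of them, so each muscle was also set against SS alone. RF was the muscle least different from SS by mean distance and by number of called loci, though not in every animal. The root mean square difference in log2 CPM (counts scaled to library size) between the SS and RF of an animal was 0.624 ± 0.056 (SD, n = 4 animals), and 22 loci (0.177% of those tested) passed the thresholds between them. GM, GB and AD followed at 0.642, 0.643 and 0.646, which differ from each other and from RF by less than their SDs of 0.0359 to 0.056. They gave 71 (0.57%), 61 (0.49%) and 102 called loci (0.819%). In animal 1 GM was nearer to SS than RF was, at 0.6625 against 0.692. In animal 3 AD was nearer than RF, at 0.615 against 0.6485. PM lay at 0.683 ± 0.0711 with 113 loci (0.907%), and LL at 0.722 ± 0.0621 with 301 loci (2.42%). ST and SM were farthest, at 0.77 ± 0.0472 and 0.773 ± 0.0698, and gave 286 (2.3%) and 363 called loci (2.91%). These distances include counting noise, which is larger in shallower libraries. In SM the distance was 0.836 in animal 1, where 3 counts equalled 1.02 CPM, and 0.703 in animal 4 (0.474 CPM). In ST it was 0.816 in animal 1 (0.797 CPM) and 0.704 in animal 3 (0.495 CPM). GM of animal 1 was shallow too (0.854 CPM) but lay at 0.6625. The part of library depth in this ranking was not tested.

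**Figure D2:**
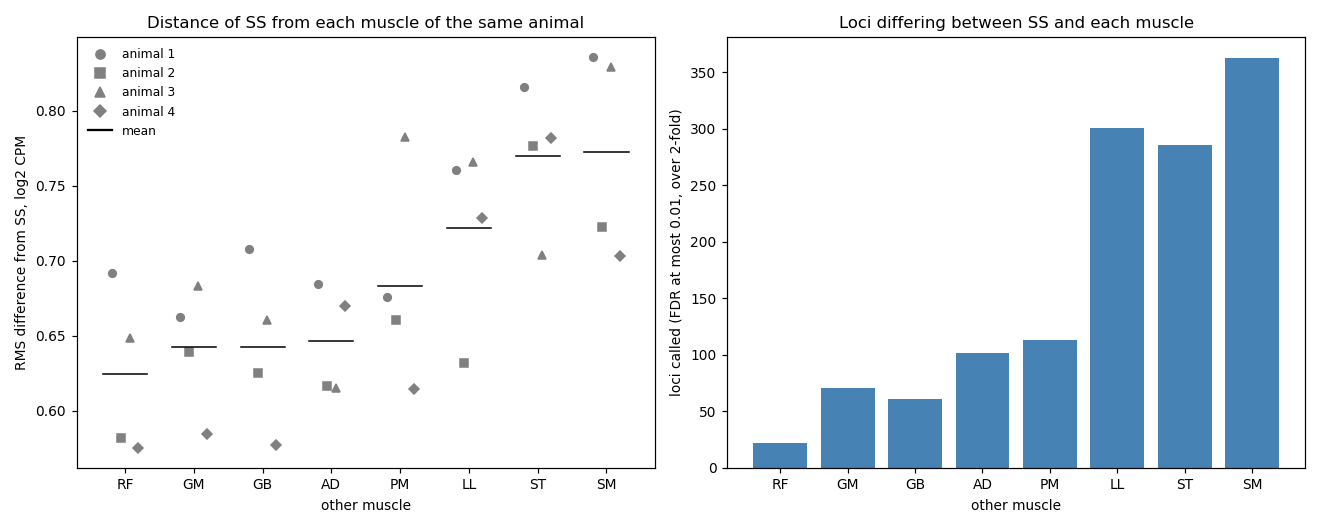
Left, root mean square difference in log2 CPM over the tested loci between the SS sample and each other muscle of the same animal, with 1 symbol per animal and a line at the mean. Right, number of loci called between SS and each muscle, from 22 for RF to 363 for SM. The bars share the same 4 SS samples.

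For each called locus the muscle closest to SS was taken as the one with the smallest fitted difference in the direction of the call. For 35 of the 57 lower loci the closest muscle was RF, and for the other 22 it was GB in 10, SM in 8, ST in 2 and GM in 2. These loci are not all independent, since 11 were neighbours on chromosome 22, 8 on chromosome 3 and 4 on chromosome 9. The closest muscle was not counted over all tested loci, so these counts have no background share beside them. For the 131 higher loci the closest muscle was GB in 32, AD in 32, RF in 19, PM in 19 and GM in 12. SS was the highest of 9 muscles in all 4 animals at 18 of the 131 loci, where 0.425% of all tested loci had this pattern. It was the lowest in all 4 at 27 of the 57 loci, against 0.441% of all tested loci. All 4 SS samples lay above all 32 others at 2 of the higher loci (0.0321% of all tested) and below all of them at 9 of the lower loci (0.0803%). Only 2 loci were called higher than each of the 8 muscles (0.0161%), METTL21C and a locus at the position of MYL6. Likewise 2 were called lower than each of them (0.0161%), CHI3L1 and HOXC10.

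The deposited tables name loci by assembly and Ensembl identifiers only, so symbols were paired through genome positions that the study printed for genes differing between ST and SS or between SM and SS. Those genes were therefore chosen on these same SS samples, and their direction is not independent evidence. Of 50 printed positions, 39 fell on a single tested locus, 9 on several and 2 on none. SS was higher at 16 of the 39 single loci and lower at 7, against 1.05% and 0.457% of all loci tested, and 16 did not pass the thresholds. The median log2FC of all 39 was 0.72. Each result below is also given against the mean of the 6 muscles other than ST and SM wherever that ended the call. Among 347 symbols in 18 lists of genes, 23 could be paired, in 8 lists. No member of the lists of fast contractile genes, mitochondrial and oxidative genes, ribosomal proteins, stress response genes, or markers of endothelium, fat, blood, nerve, satellite cells or smooth muscle was paired, so those lists were not measured here and the share of other cell types was not checked.

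Of 16 genes listed for the slow contractile apparatus, 7 were paired with a single locus. Of these 6 were called higher in SS, where 1.05% of all loci tested were, and MYL3 was not called. Their median log2FC was 1.22, against 0.00805 over all loci tested. All 7 came from the study's comparisons with ST or SM, so this count is not independent evidence. MYOZ2, a protein of the Z-disc of slow and cardiac fibres (ENSOARG00000016717, chromosome 6, 6264895 to 6303407 on Oar_v3.1), had 53.3, 42.3, 73.9 and 46 CPM in the SS of animals 1 to 4. The other 32 samples ran from 1.52 to 59.4 CPM with a median of 17.2. SS was the highest muscle in all 4 animals, although the ranges overlapped, and the log2FC was 1.89 (SE 0.064, n = 4, FDR = 1.9e-10). The SE refers to the mean over animals of the difference taken within each animal on the log2 CPM scale, which lies nearer to 0 than the fitted log2FC at loci with few counts. MYOZ2 was also abundant in GB, and against that muscle the difference was 0.53 (FDR = 0.30).

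MYOM3, a structural protein of the M-band, had 34.5, 30.6, 64.6 and 38.9 CPM in SS, and the others ran from 2.18 to 60.4 with a median of 11.6. Its log2FC was 1.91 (SE 0.19, FDR = 1.6e-07), and SS was highest in 3 of 4 animals. PM came closest, with a mean of 31.7 CPM and a log2FC of 0.43 between SS and PM (FDR = 0.53). TNNI1, the slow inhibitory troponin, had 43.2, 44.4, 75.1 and 76.7 CPM in SS and a median of 24.2 in the others, with a log2FC of 1.43 (SE 0.12, FDR = 4.2e-05). Here PM was as high as SS, at a mean of 64.2 CPM against 59.8, and the log2FC against PM was -0.15 (FDR = 0.86).

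The remaining slow thin-filament genes also had their highest mean in PM. TNNC1, the calcium-binding troponin of slow and cardiac muscle, had 211 to 361 CPM in SS and a median of 138 in the others, with a log2FC of 1.22 (SE 0.087, FDR = 9.3e-05). TNNT1, the slow tropomyosin-binding troponin, had 172 to 281 CPM in SS and a median of 116 in the others, with a log2FC of 1.15 (SE 0.13, FDR = 0.00021). TPM3, the slow tropomyosin, had 100 to 189 CPM in SS and a median of 67.3 in the others, with a log2FC of 1.03 (SE 0.073, FDR = 7.7e-05). All 3 genes were lowest in ST, and their PM means were 328, 255 and 217 CPM. For TPM3 the mean of GB, at 141 CPM, was also close to that of SS at 140 CPM. They stayed under 2-fold against the mean of the 6 muscles without ST and SM, at 0.89, 0.80 and 0.64. Without animal 3 none of the 3 was called, at log2FC of 1.16, 1.12 and 0.98.

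MYL3, the essential light chain of slow and ventricular myosin, did not follow them. It had 38, 27.6, 72.3 and 91.3 CPM in SS, well inside the range of 1.09 to 206 CPM of the others, whose median was 53.2. Its log2FC was 0.47 (SE 0.30, FDR = 0.21), and it turned negative, at -0.071, when ST was left out of the mean. PM had a mean of 185 CPM, and SS was below PM by 1.78 on the log2 scale (log2FC = -1.78, FDR = 0.00028). MYLK3, the cardiac myosin light chain kinase, was paired by the end of its printed position only, since the start lies far from the locus. It had a log2FC of 0.92 (SE 0.10, FDR = 0.0013) and did not reach 2-fold. It passed 2-fold when PM was left out of the mean, at 1.14, when PM and LL were left out, at 1.03, and narrowly without animal 1.

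Positions shared by overlapping loci could not be given to 1 gene by position alone. The span of MYL2, the regulatory light chain of slow myosin, overlaps CCDC63 on chromosome 17, and both tested loci there were higher in SS, by 1.76 (SE 0.056, FDR = 7.7e-09) and 1.64 (SE 0.14, FDR = 3.9e-06). Their PM means lay close to SS, at 38.6 against 49.4 CPM and at 134 against 152 CPM. At the position of MYH7B, a myosin heavy chain of the slow class, 1 of 2 loci was higher in SS at 57.9, 79.9, 80.4 and 77.6 CPM against a median of 24.9, with a log2FC of 1.84 (SE 0.23, FDR = 5.9e-06). It was called against only 3 of the 8 muscles taken alone. The smallest differences were from GB (log2FC = 0.72, FDR = 0.41), PM (0.82, FDR = 0.26) and GM (0.88, FDR = 0.26). The second locus of that span had 10.2 to 16.9 CPM in SS and a log2FC of 0.016 (FDR = 0.97). The study lists MYH7B as higher in SS than in ST. That held for the called locus (log2FC of SS against ST = 4.32) and not for the second (-0.025).

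The clearest contrast between paired loci lay at the position of MYL6, a light chain of non-muscle and smooth muscle myosin, on chromosome 3 from 163076924 to 163101778. One locus (ENSOARG00000010069) had 62, 57, 100.1 and 68.4 CPM in SS, and every one of the 32 other samples was lower, from 2.07 to 41.9 CPM with a median of 5.41. Its log2FC was 3.30 (SE 0.19, FDR = 5.2e-16), the smallest FDR of all loci tested. SM came closest with a mean of 19.7 CPM, and SS was still higher by a log2FC of 2.02 (FDR = 3.4e-05). The other locus of the same span (ENSOARG00000009931) had 23.6 to 30.6 CPM in SS against a median of 30.1, with a log2FC of -0.21 (SE 0.045, FDR = 0.25). The position alone did not settle which of them is MYL6. The study lists MYL6 as higher in SS than in ST. That held for the first locus (log2FC of SS against ST = 3.90) and not for the second (-0.39), so the first is the MYL6 of the study.

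**Figure D3:**
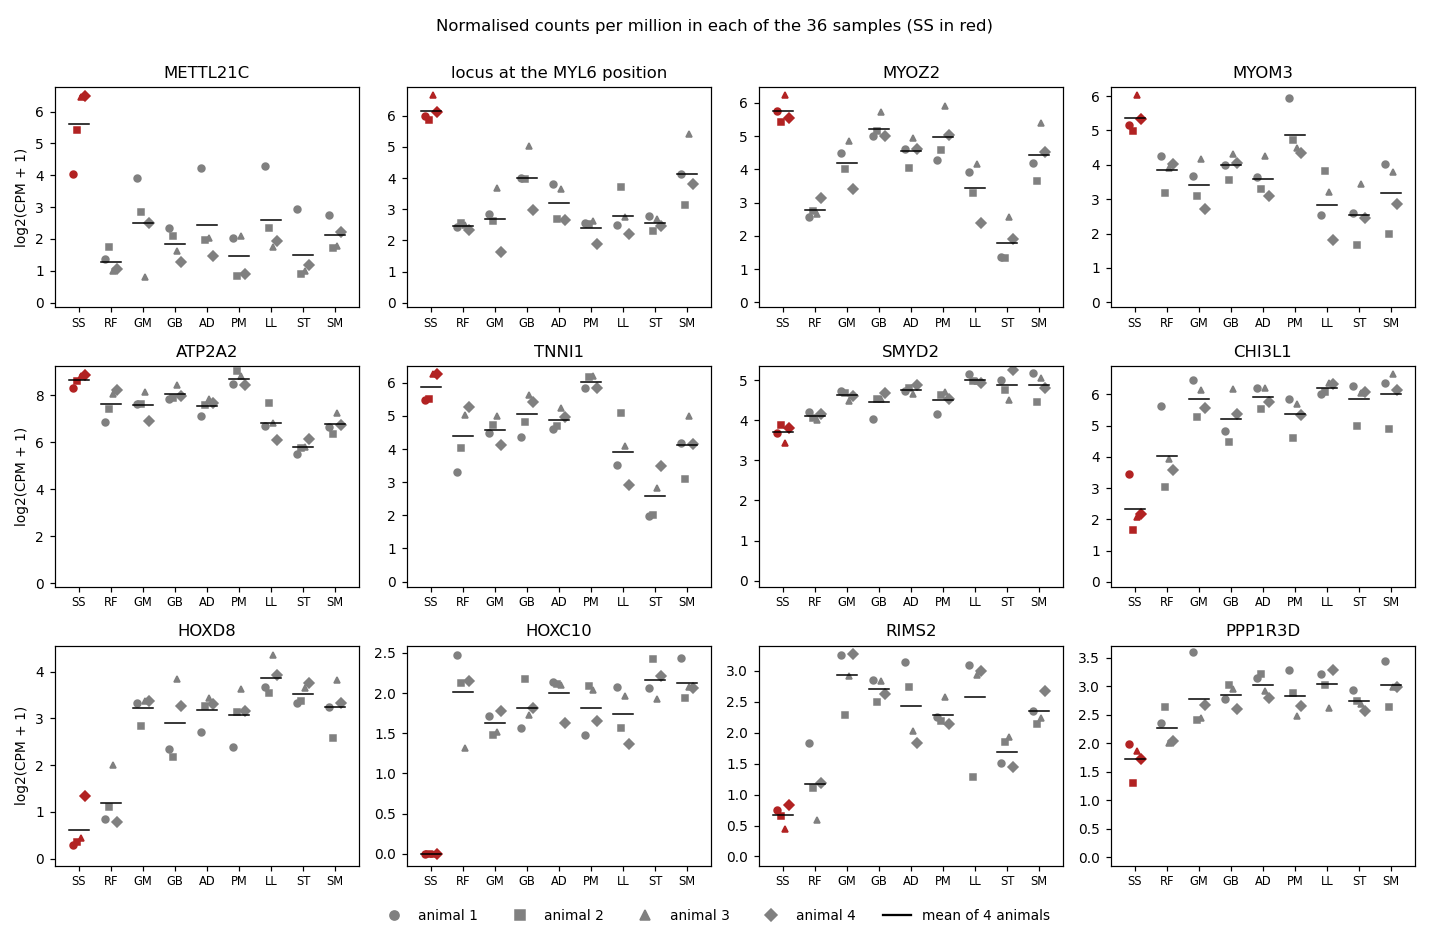
Level of 12 loci in each sample as log2 of CPM plus 1, by muscle, with SS in red, 1 symbol shape per animal and a line at the mean of 4 animals. METTL21C and the locus at the MYL6 position stand above the other muscles in SS, whereas ATP2A2 and TNNI1 are as high in PM. HOXC10 is at 0 in all 4 SS samples and HOXD8, CHI3L1 and RIMS2 are low in SS with RF next.

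Of 5 genes listed for calcium handling in slow fibres, 2 were paired, and both were called higher in SS (1.05% of all loci tested were). Both were also chosen on these samples. ATP2A2, the slow and cardiac calcium pump of the sarcoplasmic reticulum (ENSOARG00000016226, chromosome 17), had 319, 389, 446 and 463 CPM in SS and a median of 194 in the others, with a log2FC of 1.26 (SE 0.10, FDR = 3.3e-06). PM had a similar level, with a mean of 421 CPM against 404 and a log2FC between them of -0.058 (FDR = 0.94). Against the mean of the 6 muscles without ST and SM the log2FC was 0.90, under 2-fold. CASQ2, the calcium-storing calsequestrin of slow and cardiac muscle, had 5.72, 9.86, 15.1 and 9.44 CPM in SS against a median of 4.67, with a log2FC of 1.24 (SE 0.34, FDR = 1.7e-05). It was not called without animal 3, at 0.90 with an FDR of 0.011. PM came closest to SS for CASQ2 (log2FC = 0.53, FDR = 0.27).

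PVALB, parvalbumin, a calcium buffer of fast fibres and the only paired gene of 9 in the fast calcium list, was also called higher, with a fitted log2FC of 3.39 (FDR = 3.8e-07). The mean of the 4 within-animal differences, which the prior count draws toward 0 at so low a level, was 1.82 (SE 0.65). The level was uneven across animals, at 17.4 CPM in the SS of animal 1 and 2.18, 1.24 and 1.73 CPM in animals 2, 3 and 4. RF and ST had as much, with means of 7.29 and 5.68 CPM against 5.63 in SS, while the means of the other 6 muscles lay between 0 and 0.66 CPM. Differences from RF (-0.66, FDR = 0.56) and ST (-0.46, FDR = 0.52) did not pass. Without animal 1 the log2FC was 2.41 (FDR = 0.0018). An unannotated locus near MYLK4 on chromosome 20 had 1.16 to 5.49 CPM in SS, with a mean of 3.20, against means of 7.32 in ST and 3.11 in RF. Its fitted log2FC was 1.70 (FDR = 0.00044) and its mean within-animal difference 1.20 (SE 0.31), and it was not called without animal 3, at 1.57 with an FDR of 0.018.

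**Figure D4:**
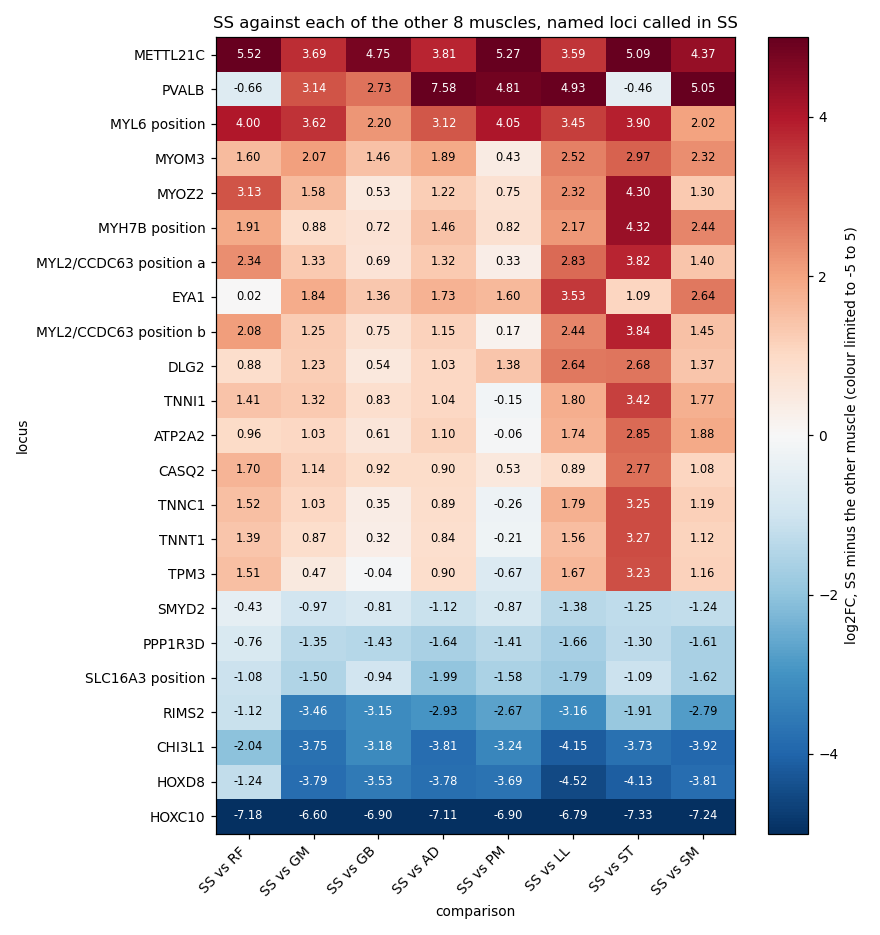
Log2FC of SS against each of the other 8 muscles for loci named here and called in SS, 1 row per locus and 1 column per muscle, red where SS is higher and blue where SS is lower, with colour limited to 5 in either direction. The column of PM is near 0 for ATP2A2, TNNI1, TNNC1 and TNNT1, and the column of RF is paler than its neighbours for HOXD8, CHI3L1 and RIMS2. All columns share the 4 SS samples, and the fitted values of HOXC10, which has 0 counts in SS, depend on the prior count.

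Of 18 regulators in the list for the slow programme, 4 were paired, and 2 were higher, 1 lower and 1 not called. Over all loci tested, 1.05% were called higher and 0.457% lower. All 4 had been chosen on these same SS samples, so the counts are not independent evidence. METTL21C, a lysine methyltransferase of skeletal muscle (ENSOARG00000005123, chromosome 10, 78272110 to 78285629), had the largest log2FC of the loci called higher. SS had 15.6, 41.8, 87.5 and 88.2 CPM in animals 1 to 4, and the other 32 samples ran from 0.743 to 18.8 CPM with a median of 2.63. In animals 2, 3 and 4 SS was above all other muscles by a wide margin, and in animal 1 LL at 18.8 and AD at 17.8 CPM were above SS at 15.6. The fitted log2FC was 4.51 (FDR = 5.2e-13), with a mean within-animal difference of 3.94 (SE 0.98). The fitted value ranged from 3.59 against LL to 5.52 against RF, with the largest FDR of the 8 comparisons at 2.5e-05.

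EYA1, a transcriptional co-activator that works with homeodomain partners in muscle development, had 3.89, 4.93, 3.72 and 5.97 CPM in SS against a median of 1.36 in the others. Its log2FC was 1.73 (SE 0.17, FDR = 4.8e-06), but RF had a similar level, at a mean of 4.51 CPM against 4.63 and a log2FC of 0.024 (FDR = 0.99). SMYD2, a lysine methyltransferase expressed in heart and skeletal muscle, was lower in SS at 11.9, 13.6, 9.74 and 12.9 CPM, below all 32 others, which ran from 15 to 37.1 CPM. Its log2FC was -1.01 (SE 0.097, FDR = 4.8e-06), just past 2-fold. It fell short of 2-fold without animal 3, at -0.94, and against the 6 muscles without ST and SM, at -0.93. RF was the muscle closest to SS (log2FC = -0.43, FDR = 0.30). SIM2, a basic helix-loop-helix factor, had 0.385 to 1.06 CPM in SS, with log2FC of -0.64 (SE 0.17, FDR = 0.46). SS was called lower than AD (log2FC = -2.54) and SM (-2.32), while ST, with a mean of 0.054 CPM, lay below SS (log2FC = 3.17, FDR = 0.014).

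Both HOX genes that could be paired, out of 48 symbols of limb and axial position, were lower in SS, where 0.457% of all loci tested were. Both had also been chosen on these same SS samples. HOXC10, a homeobox gene of the C cluster active in hind parts of the body (ENSOARG00000016331, chromosome 3, 132378062 to 132383225), had 0 counts in all 4 SS libraries and 508 counts in the other 32. The other samples ran from 1.5 to 4.53 CPM with a median of 3, so no sample of any other muscle overlapped with SS. With 3 counts over the 4 SS libraries as the floor, equal to 0.136 CPM, HOXC10 was at least 20.8-fold lower in SS than in the mean of the other muscles and at least 15.3-fold lower than in GM, the lowest of them. The difference was called against each of the 8 muscles, with the largest FDR at 1.4e-06. LL of the back and PM of the loin had means of 2.42 and 2.57 CPM, within the range of the 6 hind-limb muscles.

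HOXD8, of the D cluster (ENSOARG00000017491, chromosome 2, 132873609 to 132877353), had 0.229, 0.29, 0.354 and 1.54 CPM in SS, where 13 counts were found in all. The others ran from 0.726 to 19.5 CPM with a median of 8.93, and the fitted log2FC was -3.56 (FDR = 2.5e-09), with a mean within-animal difference of -3.12 (SE 0.40). Without animal 4, the SS library with the most HOXD8, the fitted value was -4.49. In contrast to HOXC10, RF was low too, with a mean of 1.42 CPM, and the difference between SS and RF did not pass (log2FC = -1.24, FDR = 0.31). The means of the other 7 muscles were 7.39 to 14 CPM, highest in LL.

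Other loci within 150 kb of these genes were then counted. Around HOXC10, 16 loci had too few counts to be tested and together gave 14 counts in SS and 601 in the others. In CPM their sum was 0.686, 0.725, 0.354 and 0.77 in SS and 1.09 to 5.58 in the other samples, with a median of 3.33, so SS lay below every other sample. The locus 12.4 kb before HOXC10 had 1 count in SS and 143 in the others, and the locus 5.42 kb after its start had 0 and 108. The single tested neighbour, an unannotated locus 46.6 kb before, did not differ in this way, with 118 counts in SS and a log2FC of 0.41 (FDR = 0.65). Around HOXD8, the locus 9.21 kb after its start had 2 counts in SS, 4 in RF and 224 in all 8 others, and was called lower (log2FC = -3.21, FDR = 0.0024). The tested loci 13.3, 15.9 and 37.1 kb before HOXD8 were not called, with log2FC of -0.95, -0.67 and -0.73. The 9 untested loci there had 15 counts in SS and 182 in the others, and their summed CPM in SS, 0.229 to 1.24, overlapped with the rest.

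**Figure D5:**
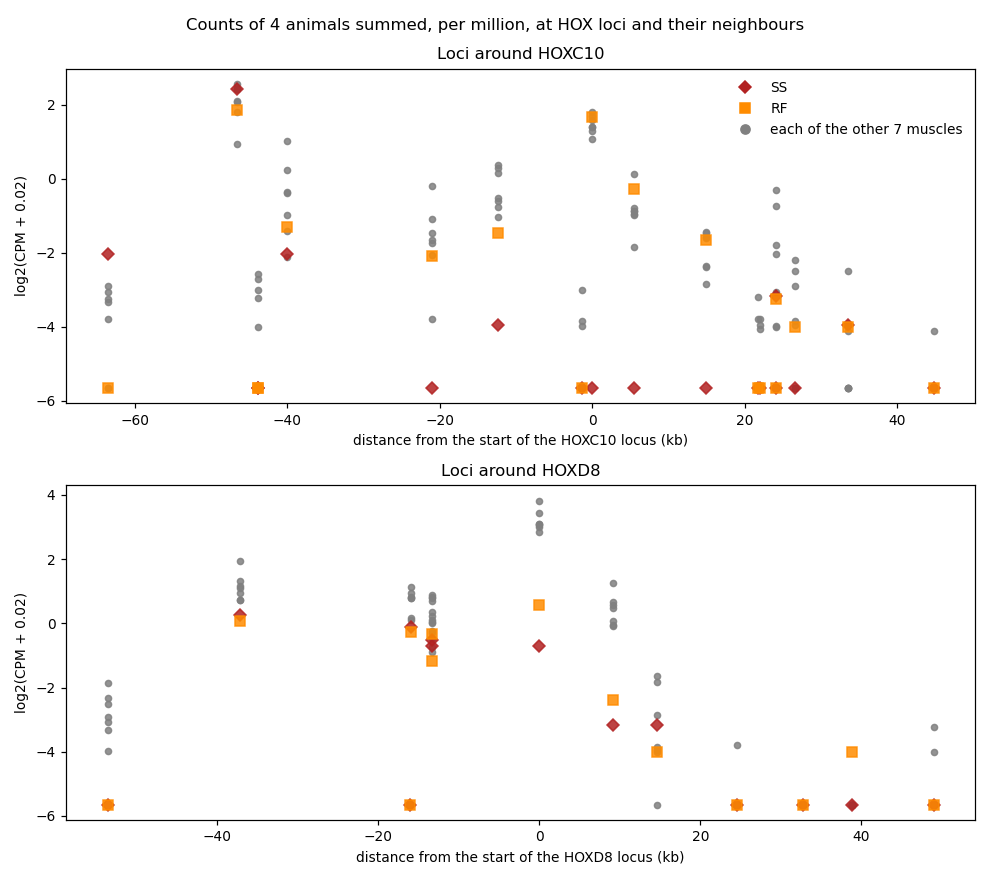
CPM summed over the 4 animals of a muscle, as log2 of CPM plus 0.02, for loci within 70 kb of HOXC10 (top) and HOXD8 (bottom), by distance in kb from the start of each gene. SS is red, RF orange and the other 7 muscles grey, and the lowest points are loci with 0 counts. SS is at or near 0 at HOXC10 and at loci on both sides of it where RF is not, whereas SS and RF are both low at HOXD8.

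Genes of synaptic scaffolds were found in both directions, and the ion channel gene KCNMA1 was higher in SS but under 2-fold. DLG2, a scaffold protein of the membrane-associated guanylate kinase family, had 3.89, 5.08, 9.74 and 9.63 CPM in SS against a median of 2.76, with a log2FC of 1.47 (SE 0.31, FDR = 5.9e-06). GB came closest at 4.93 CPM (log2FC = 0.54, FDR = 0.37). KCNMA1, the pore-forming subunit of the calcium-activated BK potassium channel, had the smallest SE of the named loci. Its level was 22.2, 22.3, 21.6 and 21 CPM in SS, each above the 32 others, which ran from 6.81 to 17.1 CPM. Its log2FC of 0.86 (SE 0.012, FDR = 7.2e-07) did not reach 2-fold and was therefore not called.

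RIMS2, a scaffold protein of presynaptic active zones, was lower in SS at 0.686, 0.58, 0.354 and 0.77 CPM against a median of 3.84, and SS was the lowest muscle in all 4 animals. Its fitted log2FC was -2.65 (FDR = 1.9e-05), and its mean within-animal difference was -2.12 (SE 0.16). RF again came closest, with a mean of 1.37 CPM (log2FC = -1.12, FDR = 0.47).

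PPP1R3D and a locus at the position of SLC16A3, genes of glycogen and lactate handling, were lower in SS. PPP1R3D, a subunit that directs protein phosphatase 1 to glycogen and the only paired gene of 27 in its list, had 2.97, 1.45, 2.66 and 2.31 CPM, just below the lowest of the others at 2.99, whose median was 5.89. Its log2FC was -1.39 (SE 0.20, FDR = 2.4e-05), and against RF, the closest muscle, it was -0.76 (FDR = 0.22). At the position of SLC16A3, the lactate exporter of glycolytic fibres, 1 of 2 loci had 4.35, 4.79, 4.43 and 3.08 CPM in SS, below all others at 5.75 to 23.4 CPM, with a log2FC of -1.45 (SE 0.18, FDR = 1.9e-05). Against GB, the closest muscle, the log2FC was -0.94 (FDR = 0.053). The second locus of that span was at 8.67 to 10.7 CPM in SS with a log2FC of -0.19 (FDR = 0.44), so the position alone does not settle which is SLC16A3. The study lists SLC16A3 as lower in SS than in SM. That held for the called locus (log2FC of SS against SM = -1.62) and not for the second (-0.049). FABP3, the fatty acid-binding protein of heart and slow muscle, also lay on 2 loci, and neither was called. The first had a log2FC of 0.89 (FDR = 0.0026), under 2-fold, and the second 0.28 (FDR = 0.56). At the first, PM was as high as SS, with a mean of 28.9 CPM against 24.8. The study lists FABP3 as higher in SS than in ST, which held for the first (log2FC of SS against ST = 2.39) and not for the second (-0.05).

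CHI3L1, a secreted chitinase-like glycoprotein, was 1 of 2 paired genes of 25 in the matrix list, and the locus joins 2 Ensembl genes on chromosome 12 (344371 to 366834). SS had 10.1, 2.18, 3.19 and 3.47 CPM, and the others ran from 7.13 to 99.4 CPM with a median of 55.1. Within each animal SS was the lowest muscle, and the only overlap was between animal 1 in SS and RF of animal 2. The log2FC was -3.48 (SE 0.31, FDR = 1.1e-09). RF was closest with a mean of 20.4 CPM, where SS was still lower (log2FC = -2.04, FDR = 0.0014). FREM2, a protein of basement membranes, had 3.43 to 7.97 CPM in SS and a log2FC of 0.90 (SE 0.15, FDR = 0.0022), under 2-fold. It passed 2-fold when PM was left out of the mean, at 1.03, since PM had as much, at 5.45 CPM against 5.51.

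The other paired genes with a single locus stayed under 2-fold. CLIP4, KIAA1217, TACC2 and MAST2 were higher in SS by log2FC of 0.72, 0.70, 0.65 and 0.68, with FDR between 9.3e-05 and 0.0019. TMEM2, a cell-surface hyaluronidase, had a log2FC of -0.85 (FDR = 1.6e-05) and was the lowest in SS in all 4 animals. ZFP36L1, which binds AU-rich elements and promotes mRNA decay, had a log2FC of -0.56 (FDR = 0.0015). The locus at the printed position of PDLIM1 had a log2FC of 0.25 (FDR = 0.63) and is among the 16 not called. The study lists PDLIM1 as higher in SS than in ST, whereas this locus did not differ from ST (log2FC = 0.13, FDR = 0.86). Its pairing was in doubt. Unannotated loci near RORA, 3 in number, had log2FC of 0.52 to 0.67, and a further one on chromosome 2 had 0.64. At the position of STXBP5L, a syntaxin-binding protein, neither of 2 loci was called (log2FC of -1.24 and 0.80). The study lists STXBP5L as lower in SS than in ST. That held for the first locus (log2FC of SS against ST = -2.75) and not for the second (0.63). Near MYBPC1, 1 of 3 unannotated loci was called, at 1.01 (FDR = 1.2e-05), and it fell below 2-fold without animal 3 (0.83) and against the 6 muscles without ST and SM (0.85). One on chromosome 1 (230473614 to 230478546) was higher in SS by a log2FC of 1.78 (SE 0.16, FDR = 2.1e-05), where the log2FC against PM was 0.061 (FDR = 0.96).

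Loci without a symbol included some of the most different. The Ensembl gene ENSOARG00000020383 (chromosome 1, 190217503 to 190256072) had 6.18, 7.54, 3.19 and 3.47 CPM in SS against a median of 0.987, with a fitted log2FC of 2.41 (FDR = 2.2e-06) and a mean within-animal difference of 2.07 (SE 0.27), and SS was highest in all 4 animals. ENSOARG00000013784 (chromosome 10, 35915236 to 35988302) had 12.4 to 22.5 CPM in SS against a median of 9.34. Its log2FC of 1.01 (SE 0.18, FDR = 4.6e-06) was barely past 2-fold and fell below it without animal 2 (0.94), animal 3 (0.92) or animal 4 (0.99), and against the 6 muscles without ST and SM (0.91). ENSOARG00000017789 (chromosome 9, 94346997 to 94490628) was lower in SS, with 28.4, 18.1, 10.5 and 15.4 CPM against a median of 47.8 and a log2FC of -1.42 (SE 0.32, FDR = 2.2e-06). Its closest muscle was RF (log2FC = -0.75, FDR = 0.10). For ENSOARG00000020383 and ENSOARG00000013784 the closest was GB, at log2FC of 1.36 and 0.43 (FDR = 0.082 and 0.28).

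Some of the lower loci were neighbours in the genome. On chromosome 22, all 11 tested loci between 30151200 and 30328411 were lower in SS, 10 of them without an Ensembl gene, with a median log2FC of -2.26. One of them, XLOC_016911, had 30.9, 13.1, 21.1 and 12.7 CPM in SS against a median of 87.7, with a log2FC of -2.23 (SE 0.15, FDR = 3.4e-06). Summed over the 11 loci, SS had 65.4, 32.5, 46.9 and 28.5 CPM. RF had 40.1 to 160 CPM, ST 62.5 to 232 CPM and LL 122 to 546 CPM. SS therefore overlapped with RF and, narrowly, with ST, but not with LL. Adjacent loci may be pieces of 1 transcript and are not independent. The loci summed here and in the runs below had been chosen by their calls, so low sums in SS are not separate evidence.

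On chromosome 3, between 138819344 and 138863155, 8 of 10 tested loci were called lower in SS, none with an Ensembl gene, with a median log2FC of -3.10. Their summed level was 0.457, 0.725, 3.19 and 0.77 CPM in SS and 0.363 to 3.83 CPM in RF, so these muscles overlapped fully. LL had 13.5 to 55.8 CPM and GM 7.68 to 47.9 CPM. The level also differed between animals, since in all 8 other muscles animals 2 and 3 were each above animals 1 and 4. Without animal 2, the locus of this run that the study printed was not called (log2FC = -2.90, FDR = 0.030). On chromosome 9, between 94346997 and 94594923, 4 of 19 tested loci were called lower and all 19 had the same direction. The summed level of those 4 was 34.1, 29.2, 23.4 and 31.4 CPM in SS and 45.3 to 128 CPM in the others, with no overlap. Those 4 were summed because they had been called, so the lack of overlap is not separate evidence. ENSOARG00000017789, which is among them, overlapped on its own, at up to 28.4 CPM in SS and from 25 CPM in the others.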

How the data were processed

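RNA from 36 muscle samples was sequenced on 4 lanes. The authors aligned read pairs to Oar_v3.1 with TopHat2 2.0.13, joined Cufflinks 2.2.1 transcripts with the Ensembl annotation and ran htseq-count, and the deposited values are raw counts. Of 31530 entries, 394 repeats of loci listed under several Ensembl genes were removed, leaving 31136 loci. Groups came from the muscle labels and pairing from the animal labels. Deviations from the muscle means correlated within animals (mean r of SS with the other muscles 0.242, lowest 0.105, over 32 pairs).

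Computations used R 4.3.3, edgeR 4.0.16 and DESeq2 1.42.0. Low loci were dropped by edgeR's filterByExpr, grouped by muscle, and the remaining 12461 were TMM-normalised. CPM refers to total counts times TMM factors. A single model with terms for muscle and animal covered the 36 samples. Its quasi-likelihood F-test compared SS with the mean of the other 8 muscles, and with each of them alone, and p-values were adjusted by Benjamini-Hochberg over all loci. Called loci had an FDR no higher than 0.01 and a log2FC beyond 1 in either direction. SE values come from the differences between SS and the other muscles of an animal, over 4 animals, in log2 CPM with a prior count of 2. Library properties were compared by exact permutation of the SS label within animals, over 6561 assignments, with a smallest possible p of 0.00015. Tested on simulated data for the comparison of SS with the mean of the other 8 (11782 loci), the procedure called 61 of 67 loci changed by a log2FC of 1.25, 67 of 67 at 2 and 66 of 66 at 3, and 1 unchanged locus. The changed loci excluded those with few counts. All simulated loci had the same dispersion and no animal effect, unlike the data, so these rates need not hold for the real loci. In SS, 3 counts equal 0.435 to 0.686 CPM per library, and this floor covers counting error only.

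Named loci were the 12 higher and 12 lower ones of smallest p whose sign was shared by all animals, plus paired members of gene lists, with at most 2 unnamed loci per direction. Beyond these, other paired genes, HOX neighbours and runs of adjacent loci were described after their values had been seen. The members and lists were chosen with earlier results of these data known. The alternatives were the likelihood ratio test, DESeq2, RLE size factors, removal of the 4 most counted unannotated loci, other filters, no animal block, each animal left out, other sets of comparison muscles and an FDR of 0.05. The comparisons without ST and SM, and without PM, were chosen after seeing the data. Gene sequences were not used here. Some results that the rule for named loci covers are not reported here.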

Additional observations from a re-analysis of the deposited data

Results flagged for a closer look

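Among 53 loci and 5 library properties examined, each over 4 animals, 2 values stood far from the other 3, and chance flags about 1 in 20 such groups. For ATP2A2 the difference of SS from the mean of the other 8 muscles was 1.59 on the log2 CPM scale in animal 4, against 1.16 to 1.22 in the other animals. For EYA1 it was 2.07 in animal 1, against 1.35 to 1.47 in the other animals. SS exceeded that mean in 4 of 4 animals for either gene, and leaving out any single animal did not end either call.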

How the results depend on the processing

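The number of loci called (188, with 131 higher and 57 lower in SS) depended most on the filter, the animal block and single animals. Without a filter 386 were called (291 higher, 95 lower) of 28849 tested, and with at least 10 counts in every sample 43 of 5151 tested (25 higher, 18 lower). Without the replicate block for animal 95 were called (65 higher, 30 lower), and all 95 were among the 188. Among the named loci, 2 of the chromosome 3 run lost their call without the block, at log2FC of -3.06 and -3.85 (FDR = 0.056 and 0.074), and no other did. An FDR of 0.05 gave 289 (205 higher), and leaving out ST and SM gave 81 higher loci. With each animal left out, the count ran from 69 to 228, with 40 to 172 higher and 29 to 56 lower. The cause of these shifts was not tested. The likelihood ratio test (233), DESeq2 (159) and RLE factors (185) stayed within 1.5 times. MYL3 turned negative without ST (log2FC = -0.0713) and without ST and SM (-0.167). The share of counts on 4 loci, SS minus the others, was -0.629 percentage points and ranged from -1.84 to 0.502 over animals left out, with 0.0942 without animal 2. The difference in detected loci ranged from 876 to 1080, with an exact permutation p above 0.05 without animal 2, 3 or 4. Depth limits what can be said of loci near 3 counts per library, such as the neighbours of HOXC10.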

Other observations

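Runs of neighbouring loci were also found among those higher in SS, where called loci less than 100 kb apart were joined. There were 6 runs of 3 called loci each that held only loci without an Ensembl gene, with median log2FC from 1.20 to 1.84. One lay on chromosome 25 between 33076812 and 33114355, beyond the end of KCNMA1 at 33017828, where 3 of 5 tested loci were called with log2FC from 1.02 to 1.58. Adjacent loci may share transcripts, and no test of clustering was made.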
